A study of Homo sapiens with 12 samples.

Results

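The 9 genes described here encode the claudins CLDN5, CLDN11 and CLDN12, occludin (OCLN), the scaffold protein ZO-1 (TJP1) and the adhesion molecules F11R, JAM2, JAM3 and ESAM. They were taken by gene symbol from a table of 23398 gene entries, with earlier results of these data known, and all 9 were in it. All 9 were also among the 14325 genes with enough counts to be tested. The RNA came from cultured human brain microvascular endothelial cells, which form the inner wall of the smallest brain vessels and were bought from a commercial supplier. The study knocked down SLC2A1, the gene of the glucose transporter Glut1, and raised glucose, and asked how each changes the RNA of these cells.

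The 4 groups were siGlut1 in high glucose (3 libraries), non-silencing siRNA in high glucose (2 libraries), siGlut1 in control medium (3 libraries) and non-silencing siRNA in control medium (3 libraries). Every group, the controls included, had been transfected with an siRNA for 48 h. The sources used here do not give the glucose concentrations or the length of exposure. A library is called by its siRNA, its medium and its number, as in siGlut1 high 1. A further column, non-silencing high 2, equalled the mean of non-silencing high 1 and 3 in 23397 of 23398 entries and was left out. The labels do not say whether replicates were separate cultures, and p-values then reflect only how far these libraries differ among themselves, a spread that may be technical.

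Tight junctions are the seals between neighbouring endothelial cells that keep solutes in the blood from slipping between cells into the brain. Claudins and occludin cross the membrane and bind their partners on the next cell, JAM proteins and ESAM are immunoglobulin-type adhesion molecules of the same contacts, and ZO-1 ties the membrane proteins to the actin skeleton. In brain endothelium claudin-5 is the best known component, and mice without it have a leaky blood-brain barrier for small molecules.

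Much of what follows concerns CLDN11 and OCLN, and RefSeq promoter sequences (GRCh38.p14) were at hand for these 2 and for CLDN12 and TJP1, 4 of the 9 genes. The 250 bases before the start of the first listed CLDN11 transcript (chr3:170418618-170418867, plus strand) and of the first listed OCLN transcript (chr5:69492297-69492546, plus strand) are shown so that both can be compared by eye. Capitals mark the GC box GGGCGG on either strand, the element that Sp-type factors bind.
CLDN11: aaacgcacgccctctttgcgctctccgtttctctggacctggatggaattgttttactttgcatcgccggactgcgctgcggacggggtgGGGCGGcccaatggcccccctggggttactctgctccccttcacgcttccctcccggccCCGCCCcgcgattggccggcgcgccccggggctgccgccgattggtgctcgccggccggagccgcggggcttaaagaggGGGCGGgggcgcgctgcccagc
OCLN: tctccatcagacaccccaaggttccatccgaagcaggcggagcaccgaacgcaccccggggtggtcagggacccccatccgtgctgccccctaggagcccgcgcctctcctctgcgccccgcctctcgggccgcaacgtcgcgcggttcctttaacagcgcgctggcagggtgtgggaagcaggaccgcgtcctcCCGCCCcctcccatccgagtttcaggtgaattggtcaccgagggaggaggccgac
The CLDN11 window held 3 GC boxes and the OCLN window 1, and 42.6% of 35116 RefSeq windows of this length held at least 1. Neither window held the E-box CACGTG, found in 6.34% of windows, or the ETS-type motif CCGGAA, found in 14.5%, both searched on both strands, so that no matches of different motifs overlapped. A match is a stretch of letters and not a shown binding site, and no match says only that these letters are not in this window.

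Library totals of the deposited counts lay between 40135082 and 90536476 (median 49686182), and every count in the 11 libraries was even. All 10 endothelial markers were tested, with CDH5 (VE-cadherin) at group means of 1537 to 1837 CPM (counts scaled to library size by the trimmed mean of M values). All 7 brain endothelial markers were tested too, but SLCO1A2 and SLC38A5 averaged at most 0.491 and 1.26 CPM in any group. The lymphatic marker LYVE1 averaged 107 to 186 CPM, while PDPN was at 0 in every library, as were the astrocyte marker AQP4 and the epithelial cadherin CDH1. CDH1 was the 1 gene at 0 in an epithelial list of 8, of which 5 were tested. The summed level of that list was 290.5 to 407.6 CPM. RGS5, listed as a pericyte marker, held 98.3% to 99.1% of the summed level of its 8-gene list, and the pericyte receptor PDGFRB averaged at most 0.249 CPM. siGlut1 control 3 and non-silencing control 3 stood apart from replicates 1 and 2 of their groups: over 12680 genes their difference from that pair ran with GC content with Spearman correlations of -0.24 and -0.445, given here as a description.

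Per unit of length, the 9 transcripts fell into a high, a middle and a low set, with CLDN12 alone between the middle and the low one. On the authors' length-scaled read values (RPKM), CLDN11 had a median over the 11 libraries of 191 (range 142 to 257) and ESAM of 176 (164 to 189). F11R had a median of 56.2 RPKM (45.8 to 75.4) and JAM3 of 49.5 RPKM (46.3 to 55.8). CLDN5 followed at 30.0 RPKM (22.2 to 55.6) and TJP1 at 21.0 RPKM (18.1 to 22.8). The ranges of neighbours in this order overlapped, except between ESAM and F11R. CLDN12 stood lower, at 3.08 RPKM (2.56 to 4.72), with no overlap with TJP1 above it or OCLN below it. OCLN, at 0.458 RPKM (0.407 to 0.597), and JAM2, at 0.407 RPKM (0.252 to 0.544), overlapped and were the least abundant. JAM2 rested on only 24 to 72 counts a library, so that little can be said of it at this depth.

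**Figure D1:**
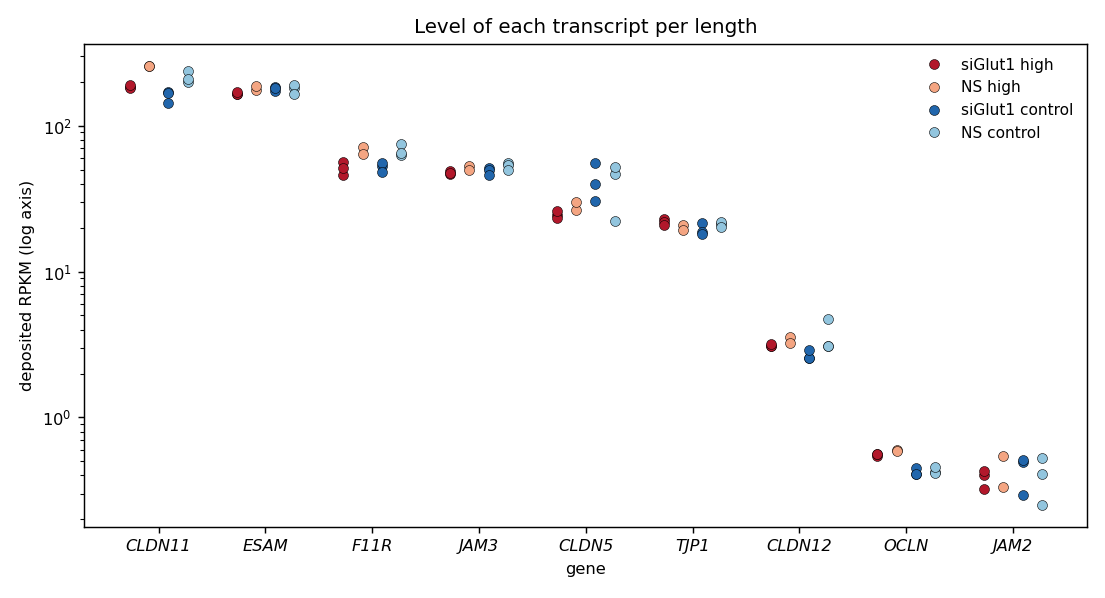
Deposited RPKM (log axis) of the 9 transcripts in each library, one point per library, coloured by group. CLDN11 and ESAM lie above 100 RPKM in all 11 libraries, while OCLN and JAM2 lie below 1 RPKM in all 11.

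SLC2A1, the target of siGlut1, was checked first. In high glucose SLC2A1 was at 7.09, 7.19 and 6.38 CPM in siGlut1 high 1, 2 and 3, against 21.2 and 20.7 CPM in non-silencing high 1 and 3. In control medium it was at 8.56, 9.05 and 6.26 CPM in siGlut1 control 1, 2 and 3, against 25.7, 23.7 and 22.2 CPM in non-silencing control 1, 2 and 3. It fell by 1.61 (standard error 0.14) in high glucose and by 1.58 (0.13) in control medium on the log2 scale, with adjusted p = 0.000899 and 0.000896 by the quasi-likelihood F test of edgeR, with p-values adjusted over all genes by the method of Benjamini and Hochberg, as throughout.

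With SLC2A1 knocked down, CLDN11 and F11R fell, and no other of the 9 transcripts passed the test. In each medium alone CLDN11 was the 1 member past the threshold of an adjusted p of 0.05, where 2.96% of all genes passed in control medium and 4.1% in high glucose. With the siGlut1 effect averaged over both media, CLDN11 and F11R passed, 2 of 9, where 14.4% of all genes did, and the median log2 fold change was -0.05 over the 9 and 0.00 over all genes. In control medium 3 members had siGlut1 libraries all below the non-silencing ones (CLDN11, CLDN12 and F11R), where 9.61% of all genes did, and 0 had them all above, where 11% did. In high glucose, where the non-silencing group holds 2 libraries, 5 members did (CLDN11, OCLN, F11R, JAM3 and ESAM), where 21.9% of all genes did, and TJP1 was the 1 member with all siGlut1 libraries above, where 22.6% of all genes were.

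CLDN11 (chromosome 3, 170136653 to 170152479, hg19), known from mice as the claudin of myelin and of Sertoli cell junctions, was the most abundant claudin here. It was at 561, 553 and 582.2 CPM in siGlut1 high 1, 2 and 3, against 758 and 768 CPM in non-silencing high 1 and 3. In control medium it was at 521, 508 and 430.4 CPM in siGlut1 control 1, 2 and 3, against 715, 615 and 619 CPM in non-silencing control 1, 2 and 3. Every siGlut1 library lay below every non-silencing library, in either medium and across them. The log2 fold change was -0.43 ± 0.09 (standard error) in high glucose and -0.42 ± 0.08 in control medium, or 0.741 and 0.749 times the non-silencing level, with adjusted p of 0.0294 and 0.0263. Averaged over both media it was -0.42 ± 0.06 with a 95% interval of -0.56 to -0.29 and an adjusted p of 0.00171.

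The averaged call on CLDN11 held in each of the 21 alternatives run, with the adjusted p reaching 0.0121 among fits that left out 1 library. The calls within a single medium did not hold as widely. In high glucose, leaving out non-silencing high 1 gave an adjusted p of 0.172, leaving out non-silencing high 3 gave 0.188, and leaving out siGlut1 high 1, 2 or 3 gave 0.0766, 0.102 or 0.0738, with log2 fold changes of -0.42 to -0.45. In control medium it was 0.0899 without non-silencing control 1 and 0.0517, 0.0569 and 0.0653 without siGlut1 control 1, 2 and 3, with log2 fold changes of -0.34 to -0.47.

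Because these are bulk libraries, fewer cells with a transcript and less of it per cell cannot be told apart. Set against ESAM, which is as abundant per length and is also endothelial, the RPKM ratio of CLDN11 to ESAM was 1.12, 1.11 and 1.12 in siGlut1 high 1, 2 and 3 and 1.45 and 1.37 in non-silencing high 1 and 3. In control medium it was 0.985, 0.904 and 0.784 in siGlut1 control 1, 2 and 3 and 1.31, 1.06 and 1.27 in non-silencing control 1, 2 and 3. The ratio was thus lower in every siGlut1 library than in any non-silencing library of the same medium. ESAM varied little, with its highest library at 1.185 times its lowest in CPM, so the ratio largely repeats the CLDN11 values. Since CLDN11 is also an oligodendrocyte gene, the markers of that cell type were read beside it. SOX10 was at 0 in all 11 libraries, MOG and MAG averaged at most 0.0145 and 0.0273 CPM in any group, and the summed level of the list was 8.71 to 10.7 CPM in siGlut1 high, 10.5 to 10.6 in non-silencing high, 9.77 to 11.7 in siGlut1 control and 10.2 to 10.9 in non-silencing control. The tested markers did not move as 1: in the siGlut1 average 1 of 2 was above 0, and in high glucose alone 0 of 2 were. Of the 2 markers that could be tested, MOBP fell with siGlut1 averaged over both media, by 0.78 ± 0.20 on the log2 scale (adjusted p = 0.0263, and above 0.05 when any of 5 of the 11 libraries was left out, reaching 0.116), at group means of 0.945 to 1.85 CPM.

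F11R (chromosome 1, 160965001 to 160991133, hg19) encodes JAM-A, an adhesion molecule of endothelial junctions and of platelets and leukocytes. It was at 289, 235 and 262 CPM in siGlut1 high 1, 2 and 3, against 357 and 322 CPM in non-silencing high 1 and 3. In the control medium F11R was at 275, 288 and 244 CPM in siGlut1 control 1, 2 and 3, against 318, 390.1 and 321 CPM in non-silencing control 1, 2 and 3. Here too every siGlut1 library lay below every non-silencing library, across both media. The log2 fold change was -0.38 ± 0.12 in high glucose and -0.35 ± 0.10 in control medium, with adjusted p of 0.0953 and 0.0981, so that neither medium alone passed. Averaged over both media it was -0.36 ± 0.08 (95% interval -0.53 to -0.19), with an adjusted p of 0.0107. That call was lost without non-silencing high 1 (log2 fold change -0.32, adjusted p = 0.0662), and held without each other library. DESeq2 called F11R in each medium, with adjusted p of 0.0425 in high glucose and 0.0351 in control medium.

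Some markers of the lining cells and of pericytes also moved with the siRNA. Averaged over both media, where 14.4% of all genes passed, 3 of 10 endothelial markers rose, CLEC14A (log2 fold change 0.60, adjusted p = 0.00418), KDR (0.31, 0.0163) and TEK (0.29, 0.0144), while the summed level of the 10 was 6942 to 8277 CPM in siGlut1 high, 6752 to 6888 in non-silencing high, 6703 to 8592 in siGlut1 control and 5875 to 8918 in non-silencing control. None of the 10 was at 0. Of 5 pericyte and smooth muscle markers tested 1 fell past the threshold, RGS5 (-0.35, adjusted p = 0.00394), while 3 of the 5 were above 0 (median log2 fold change 0.06). The summed level of the list, 98.3% to 99.1% of it RGS5, was 1702 to 2043 CPM in siGlut1 high, 2378 to 2442 in non-silencing high, 1514 to 1622 in siGlut1 control and 1844 to 2169 in non-silencing control. Of 5 epithelial markers tested 1 rose, CLDN7 (0.91, adjusted p = 0.000776). The summed level of the epithelial list was 290.5 to 337.2 CPM in siGlut1 high and 352.4 to 364.3 in non-silencing high. In control medium it was 308.7 to 407.6 CPM with siGlut1 and 320 to 399.8 CPM with non-silencing siRNA. Of the tested markers of brain endothelium (7), lymphatic endothelium (2), fibroblasts (5) and leukocytes (1) none passed in this average. The part of these markers in the CLDN11 and F11R values was not tested.

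CLDN12 (chromosome 7, 90032648 to 90045268, hg19), a broadly expressed claudin, was at 11.97, 11.98 and 12.5 CPM in siGlut1 high 1, 2 and 3, against 13.5 and 12.4 CPM in non-silencing high 1 and 3. The control-medium values were 10.15, 10.02 and 11.2 CPM in siGlut1 control 1, 2 and 3, against 11.9, 12.1 and 17.8 CPM in non-silencing control 1, 2 and 3. The groups were apart in control medium and overlapped in high glucose, and non-silencing control 3 was the highest library of all. The log2 fold change was -0.09 ± 0.16 in high glucose and -0.42 ± 0.14 in control medium (adjusted p = 0.806 and 0.143), and without non-silencing control 3 the control-medium value was -0.20. No comparison called CLDN12.

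The other junction transcripts gave no call for siGlut1, and their intervals bound the size of any change. TJP1 (chromosome 15, 29992357 to 30114706, hg19) was at 174, 167 and 158 CPM in siGlut1 high 1, 2 and 3, against 157 and 145 CPM in non-silencing high 1 and 3. Control-medium TJP1 was at 165, 144 and 137 CPM in siGlut1 control 1, 2 and 3, against 161, 167 and 149 CPM in non-silencing control 1, 2 and 3. Its siGlut1 libraries lay above the non-silencing ones in high glucose and overlapped with them in control medium, and the averaged log2 fold change was 0.02 with a 95% interval of -0.11 to 0.16. JAM3 (chromosome 11, 133938820 to 134021652, hg19), an adhesion molecule of endothelium and other cells, had an averaged log2 fold change of -0.09 (interval -0.21 to 0.03) at 179 to 216 CPM over the 11 libraries. ESAM (chromosome 11, 124623019 to 124632223, hg19), an adhesion molecule of endothelial cells and platelets, had -0.04 (-0.15 to 0.08) at 320 to 379 CPM, with its highest library at 1.185 times its lowest, the smallest such ratio of the 9. For OCLN the interval was -0.23 to 0.15, for CLDN5 -0.51 to 0.41 and for JAM2 (chromosome 21, 27011589 to 27087235, hg19) -0.56 to 0.58.

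**Figure D2:**
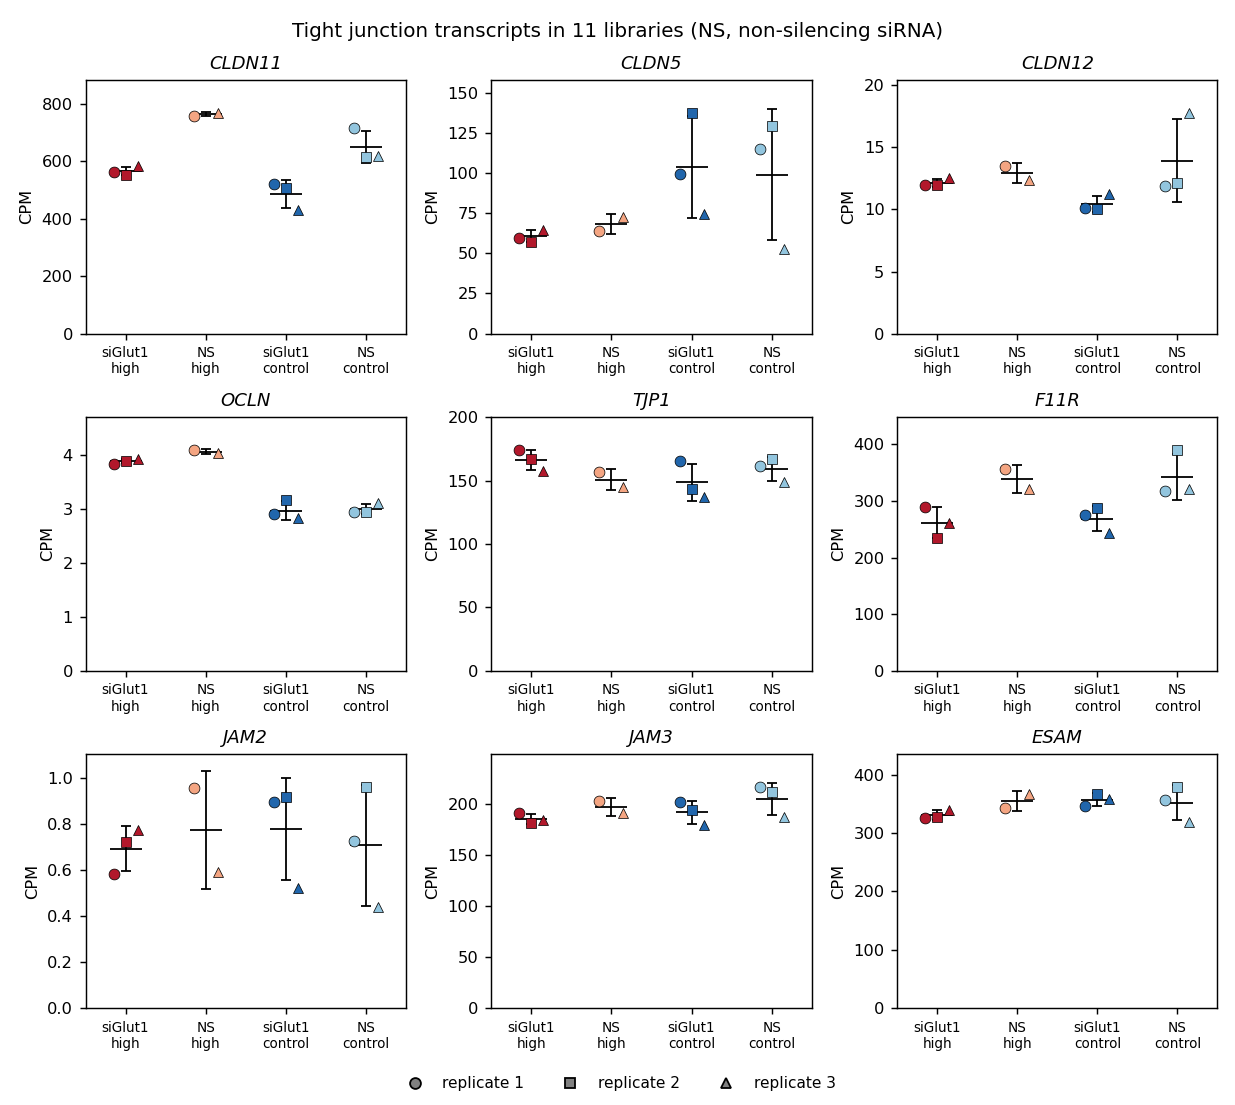
CPM of the 9 transcripts by group (siGlut1 high, non-silencing high, siGlut1 control, non-silencing control), 1 marker per library with shapes for replicate numbers, and the mean and SD of each group as bars. CLDN11 and F11R lie lower in both siGlut1 groups, OCLN lies higher in both high-glucose groups, and the control replicates numbered 3 (triangles) are the lowest CLDN5 points of their groups.

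High glucose was tested against control medium with each siRNA. With non-silencing siRNA no gene at all passed the adjusted threshold in edgeR (0% of genes, 773 genes or 5.4% at an unadjusted p under 0.05, and 30 genes with DESeq2), and with siGlut1 2 genes did (0.014%). None of the 9 was among them, and none passed in the average over both siRNAs, where 0.412% of all genes did. The median log2 fold change of the average was -0.01 over the 9 and -0.01 over all genes. With non-silencing siRNA 2 members had high-glucose libraries all above the control ones (CLDN11 and OCLN), where 8.61% of all genes did, and 0 had them all below, where 9.23% did. With siGlut1 3 were all above (CLDN11, CLDN12 and OCLN), where 10.8% of all genes were, and 2 all below (CLDN5 and ESAM), where 11.7% were.

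OCLN (chromosome 5, 68788119 to 68853931, hg19), the first membrane protein of tight junctions to be described, was low, at 116 to 354 counts a library. It was at 3.84, 3.89 and 3.92 CPM in siGlut1 high 1, 2 and 3, against 2.90, 3.16 and 2.83 CPM in siGlut1 control 1, 2 and 3. With non-silencing siRNA it was at 4.09 and 4.03 CPM in high 1 and 3, against 2.94, 2.94 and 3.10 CPM in control 1, 2 and 3. All 5 high-glucose libraries lay above all 6 control libraries. The log2 fold change was 0.39 ± 0.12 with siGlut1 and 0.44 ± 0.13 with non-silencing siRNA, with adjusted p of 0.195 and 0.794. The average was 0.41 ± 0.09 (95% interval 0.22 to 0.61), or an adjusted p of 0.0730, short of the threshold. It passed with DESeq2 (adjusted p = 0.00801) and with all 12 columns. It also passed without non-silencing control 3 (log2 fold change 0.43, adjusted p = 0.0319) and without both control replicates numbered 3 (0.41, 0.0198). A partial copy of OCLN lies on the same chromosome, and whether reads of the copy entered these counts could not be checked.

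CLDN5 (chromosome 22, 19510547 to 19512860, hg19) was the most variable of the better measured transcripts, with its highest library at 2.60 times its lowest. It was at 59.7, 57.3 and 64.6 CPM in siGlut1 high 1, 2 and 3, against 99.5, 137 and 74.1 CPM in siGlut1 control 1, 2 and 3. With non-silencing siRNA it was at 63.9 and 72.6 CPM in high 1 and 3, against 115, 130 and 52.8 CPM in control 1, 2 and 3. The groups were apart with siGlut1 and overlapped with non-silencing siRNA, where control 3 was the lowest library of all 11. The log2 fold change was -0.78 ± 0.28 with siGlut1 and -0.53 ± 0.32 with non-silencing siRNA (adjusted p = 0.244 and 0.931), and the average was -0.66 ± 0.21 (95% interval -1.12 to -0.19, adjusted p = 0.186).

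Whether CLDN5 passed depended on the control replicates numbered 3. Without non-silencing control 3 the average was -0.81 (adjusted p = 0.0203), and without both control replicates numbered 3 it was -0.90 (0.00104), with -0.96 (0.0100) for siGlut1 and -0.84 (0.0410) for non-silencing siRNA. These are the libraries that stood apart along GC content, and CLDN5, with 64.2% GC, lies at the 95.4th percentile of the genes tested, whose median is 48.2%. Across the 12680 genes with a GC value, the averaged high-glucose log2 fold change itself ran with GC content with a Spearman correlation of -0.505, against 0.06 for the averaged siGlut1 effect. With the trend on GC removed from each library, the averaged high-glucose value of CLDN5 was -0.45 (adjusted p = 0.281). OCLN (39.9% GC) gave 0.33 (0.151) after the same step, and CLDN11 (50.3% GC) gave 0.24 (0.125). Since the trend on GC lay between the media, this step cannot tell GC content and glucose apart. The part of GC content in the CLDN5, OCLN and CLDN11 values was not tested.

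CLDN11 was at 553 to 582.2 CPM in siGlut1 high against 430.4 to 521 CPM in siGlut1 control, and at 758 and 768 CPM in non-silencing high against 615 to 715 CPM in non-silencing control. With either siRNA the high-glucose libraries were all the higher ones. The log2 fold change of CLDN11 was 0.22 ± 0.08 with siGlut1 (adjusted p = 0.269), 0.23 ± 0.09 with non-silencing siRNA (0.915) and 0.22 ± 0.06 on average (95% interval 0.09 to 0.36, adjusted p = 0.145). That average passed with DESeq2 (adjusted p = 0.0360), with all 12 columns and without both control replicates numbered 3 (0.17, 0.0473). For the remaining transcripts the averaged values of high glucose were -0.03 for F11R (interval -0.20 to 0.14), 0.05 for CLDN12 (-0.18 to 0.29), 0.04 for TJP1 (-0.09 to 0.18), -0.05 for JAM3 (-0.17 to 0.07) and -0.05 for ESAM (-0.17 to 0.07). None of these 5 was called in any alternative of the high-glucose average.

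The summed level of the pericyte and smooth muscle markers lay apart between the media too, while the 5 tested markers went both ways. Averaged over both siRNAs, 3 of the 5 were above 0 in high glucose (median log2 fold change 0.04). With non-silencing siRNA 2 of the 5 were (median -0.02). The summed level of the pericyte and smooth muscle list, 98.3% to 99.1% of it RGS5, was 1702 to 2043 CPM in siGlut1 high against 1514 to 1622 CPM in siGlut1 control, and 2378 to 2442 CPM in non-silencing high against 1844 to 2169 CPM in non-silencing control, so that the high-glucose libraries were all the higher ones, as for CLDN11 and OCLN. The averaged high-glucose log2 fold change of RGS5 was 0.27 (adjusted p = 0.0835), and it passed with DESeq2 (0.00444), with all 12 columns (0.0213), without non-silencing control 3 (0.0223) and without both control replicates numbered 3 (0.00996). No marker passed when the 11 libraries were fitted. Of the 10 endothelial markers 1 was above 0 in the high-glucose average (median log2 fold change -0.10, beside -0.01 over all genes). The summed level of those 10 overlapped between the media with either siRNA. Without both control replicates numbered 3, 8 of 37 tested markers passed on average, where 18.1% of all genes did: RGS5, TFRC, COL3A1 and CD68 were higher, and TIE1, ROBO4, CLEC14A and KRT8 were lower. The part of these markers in the CLDN11, OCLN and CLDN5 values was not tested.

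**Figure D3:**
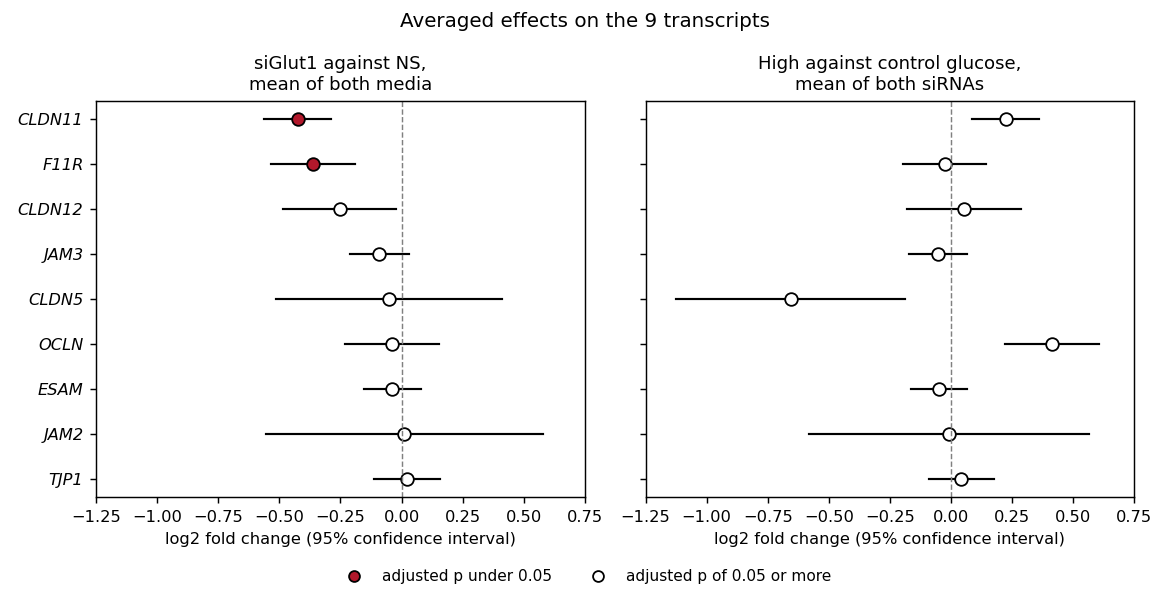
Log2 fold change and 95% interval of each transcript for siGlut1 against non-silencing siRNA averaged over both media (left) and for high against control glucose averaged over both siRNAs (right). Filled points, CLDN11 at -0.42 and F11R at -0.36 on the left, have an adjusted p under 0.05, and no point on the right does.

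Both changes together were compared as siGlut1 in high glucose against non-silencing siRNA in control medium, where 8.98% of all genes passed. F11R was the 1 member that did. Its log2 fold change was -0.39 ± 0.10 (adjusted p = 0.0412), and the call was lost when any of 9 of the 11 libraries was left out, at adjusted p of 0.0511 to 0.152 and log2 fold changes of -0.28 to -0.46. It held without non-silencing control 3 and without siGlut1 control 3. CLDN11 stood at -0.20 ± 0.08 (adjusted p = 0.153), OCLN at 0.37 ± 0.12 (0.0691) and CLDN5 at -0.71 ± 0.28 (0.137). CLDN5 passed without non-silencing control 3 (-1.01, 0.0100). CLDN11 and F11R were the 2 members whose siGlut1 high libraries all lay below the non-silencing control ones, where 14.9% of all genes did, and OCLN was the 1 member with all above, where 14.1% did.

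Whether the siRNA acted differently in the 2 media was tested as an interaction. No gene passed in edgeR (0%), with 395 genes (2.76%) at an unadjusted p under 0.05 and 0 in each alternative run, DESeq2 included. Over the 9 transcripts the interaction lay between -0.32 and 0.33 on the log2 scale. Its 95% interval was -0.29 to 0.26 for CLDN11 and -0.37 to 0.32 for F11R. TJP1, with a siGlut1 log2 fold change of 0.14 in high glucose and of -0.10 in control medium, had an interaction of 0.24 (interval -0.03 to 0.51, unadjusted p = 0.0758). CLDN5, JAM2 and ESAM also had opposite signs in the 2 media, each below 0 in high glucose and above 0 in control medium.

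The rest of the junction was read from lists of partner genes. Of 20 further claudins 8 were tested. With siGlut1 averaged over both media 1 of the 8 passed, a share close to the 14.4% of all genes. It was CLDN7, a claudin of epithelia, which rose. CLDN7 was at 14.1, 17.4 and 17.96 CPM in siGlut1 high 1, 2 and 3, against 8.67 and 8.93 CPM in non-silencing high 1 and 3. For control medium the CLDN7 values were 16.8, 15.2 and 22.6 CPM in siGlut1 control 1, 2 and 3, against 9.80, 8.60 and 10.5 CPM in non-silencing control 1, 2 and 3. The groups did not overlap in either medium, and the fold was 1.88 averaged over both (log2 fold change 0.91 ± 0.12, adjusted p = 0.000776), the opposite direction to CLDN11. In high glucose alone the call was lost without non-silencing high 1 or 3 (adjusted p = 0.143 and 0.153) and without siGlut1 high 2 or 3 (0.0664 and 0.0662). The entry of CLDN7 overlaps that of C17orf81 by 38 bases, and C17orf81 stood at 0.09 (adjusted p = 0.262).

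Of 19 scaffold and plaque genes tested, siGlut1 averaged over both media raised 3 and lowered 1, where 14.4% of all genes passed in either direction. LNX2, a ubiquitin ligase with PDZ domains, rose by 0.32 on the log2 scale (adjusted p = 0.00573), at means of 25.6 ± 1.87 CPM in siGlut1 high and 19.1 ± 1.05 CPM in non-silencing high, and of 21.6 ± 1.002 CPM in siGlut1 control and 18.5 ± 0.665 CPM in non-silencing control (SD, n = 3, except 2 in non-silencing high). AMOTL2, an angiomotin relative, rose by 0.25 (0.0285) and MLLT4, which encodes afadin, by 0.23 (0.0317), each call being lost when any of 5 of the 11 libraries was left out (adjusted p up to 0.133 and 0.147). MPDZ, a scaffold with many PDZ domains, fell by 0.22 (0.0190), a call lost when siGlut1 high 3, non-silencing high 1 or non-silencing high 3 was left out (up to 0.0808).

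Among proteins that tag or cut junction components, 1 of 7 tested fell, the ubiquitin ligase NEDD4 (log2 fold change -0.38, adjusted p = 0.00363), a share close to the 14.4% of all genes. Of 16 regulators of junction transcripts none rose and 2 fell, again close to the share of all genes. They were the flow-induced endothelial factor KLF4 (-0.72, adjusted p = 0.00923), at 1.86 to 2.13 CPM in siGlut1 high, 3.502 and 3.91 CPM in non-silencing high, 2.37 to 3.17 CPM in siGlut1 control and 3.19 to 5.42 CPM in non-silencing control, and the WNT pathway repressor TCF7L1 (-0.44, adjusted p = 0.0483, above 0.05 when any of 9 of the 11 libraries was left out, up to 0.172). Of 11 polarity genes PARD6A fell (-0.60, 0.0444) and of 16 actomyosin genes the myosin light chain MYL12A fell (-0.19, 0.0465), and both calls were lost when any of 10 of the 11 libraries was left out (up to 0.147 and 0.220). None of 5 other membrane proteins tested passed in this average. The median log2 fold change of these lists ran from -0.02 for actomyosin to 0.17 for the claudins, beside 0.00 over all genes.

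With both changes together, BVES, a membrane protein of cell contacts, rose by 0.42 (adjusted p = 0.0182), the kinase ROCK2 rose by 0.37 (0.0257) and the flow-induced factor KLF2 fell by 0.49 (0.0457), each relative to non-silencing control, where 8.98% of all genes passed. CLDN7, LNX2 and KLF4 passed there too, with the signs given above. Of the 7 brain endothelial markers 1 passed, TFRC, which rose by 0.52 (adjusted p = 0.0497). The TFRC call was lost when any of 8 of the 11 libraries was left out. The calls of BVES, ROCK2 and KLF2 were lost when any of 4, 4 and 7 of the 11 libraries was left out, at adjusted p up to 0.0734, 0.100 and 0.137. No gene of these partner lists passed for high glucose, with either siRNA or on average, when all 11 libraries were fitted. Without both control replicates numbered 3, 14 of 80 tested partner genes passed on average (8 higher and 6 lower), where 18.1% of all genes did. With siGlut1 6 of the 80 then passed, where 5.15% of all genes did, and with non-silencing siRNA 0 did, where 0.337% did. In that fit 4 partner genes passed both with siGlut1 and on average, with averaged log2 fold changes of 0.42 for LIN7C (adjusted p = 0.00665), 0.28 for ROCK2 (0.0233), 0.20 for MPDZ (0.0326) and -0.34 for the myosin light chain MYL9 (0.00913).

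**Figure D4:**
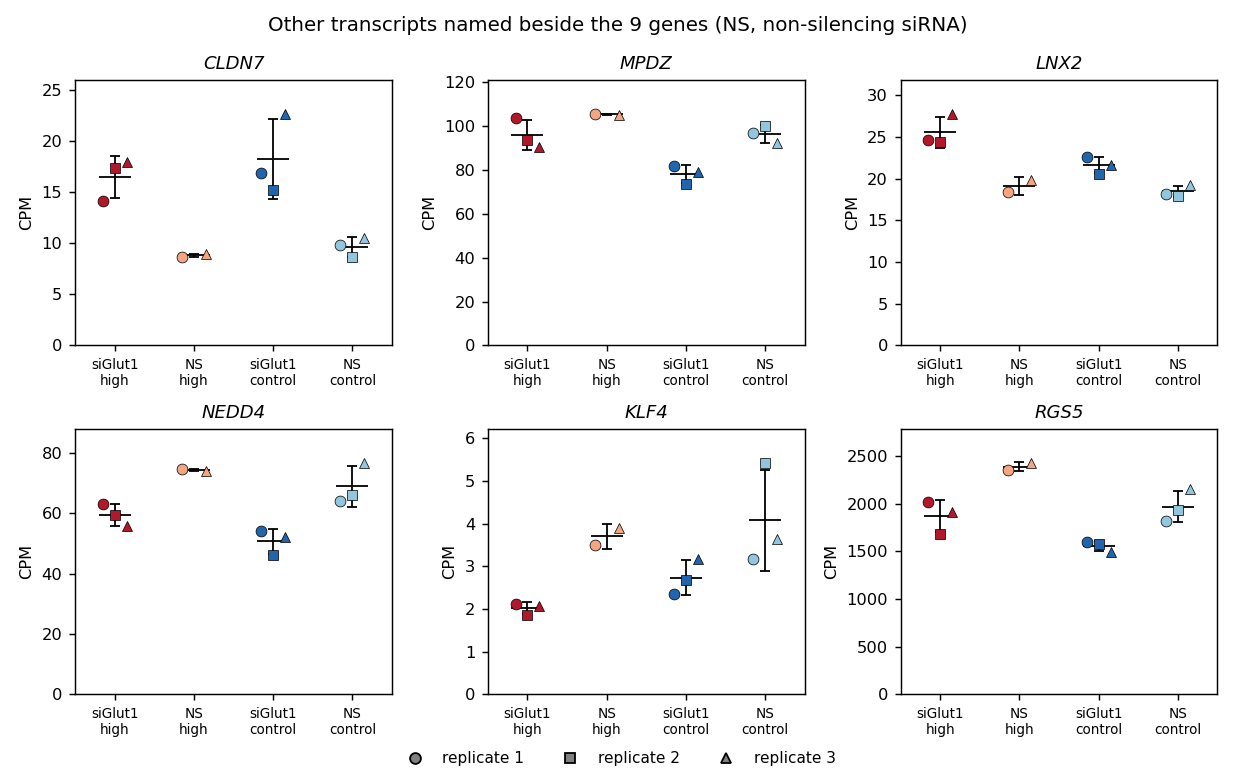
CPM by group of 6 transcripts outside the 9 (CLDN7, MPDZ, LNX2, NEDD4, KLF4 and the pericyte-list gene RGS5), 1 marker per library with the mean and SD of each group as bars. CLDN7 and LNX2 lie higher in the siGlut1 groups than in the non-silencing groups of the same medium, and NEDD4, KLF4 and RGS5 lie lower.

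Transcripts that followed CLDN11, F11R and CLDN5 most closely over the 11 libraries were found by Pearson correlation of log2 CPM among genes with a mean of at least 2 CPM (11110 compared for each). For CLDN11 they were ALDH1A2 (r = 0.967), ACO1 (0.962) and SLC6A6 (0.934). For F11R they were HBP1 (0.979), EDEM2 (0.972) and GCNT1 (0.969). For CLDN5 they were FIBP (0.982), NUDT14 (0.979) and ZNF428 (0.979). The 11 points share the same libraries and hold all 4 groups, so that these values describe likeness in this set of libraries, and the 3 sets had no gene in common.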

How the data were processed

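For every gene entry and column, the deposited table holds 1 count and 1 RPKM. The deposited counts, per the file headers and as their values show, are unnormalised whole numbers, all even in the 11 libraries used. The authors derived the RPKM from those counts with the gene length and a total that exceeds the summed counts by a factor of 1.05 to 1.07, and RPKM served here only to compare levels between genes. Per the submitters' processing notes, the build was hg19 and DESeq2 was used. Not given in the sources used here are the aligner, the counter and whether it used strand, and the annotation. The labels name 2 library kits for all samples alike. No column of values lacked a sample (0).

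The 9 genes, the lists and the tests were chosen with earlier results of these data known. There were 12 columns of counts, of which 11 were used. Entries of chromosome Y were left out, which left 23275. In R 4.3.3, edgeR 4.0.16 kept 14325 genes (filterByExpr), scaled libraries by TMM (factors 0.975 to 1.03) and fitted all 4 groups at once with no block for replicate numbers. The fit had 7 residual and a median of 4.46 prior degrees of freedom, and a common dispersion of 0.0161. F tests of the quasi-likelihood fit were two-sided, and p-values were adjusted by Benjamini-Hochberg over all genes within a comparison, with a threshold of 0.05 and no minimum fold. The standard error is the log2 fold change over the square root of F, and intervals are 95%. Log2 CPM used a prior count of 2. The scripts were tested on simulated counts.

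Named genes are the 9, SLC2A1, list members past the threshold in a comparison (at most 4 by smallest p), and the 3 genes most like CLDN5 and like each called member. Marker genes of other lists are named where they are at 0, lead their list or bear on a label. The alternatives were the replicate number as a block, DESeq2 1.42.0, no low-count filter, size factors of DESeq2 in edgeR, a minimum of 1 CPM in 6 libraries, fitting only the groups compared, all 12 columns, and each library left out in turn. Added after seeing the data were leaving out both control replicates numbered 3, halving the counts, and removing each library's trend on gene length or on GC content. Deviations from the group means of same-numbered control libraries correlated at 0.0931 to 0.535, and those of other pairs of groups at -0.25 to 0.24, so the numbers were not taken to pair libraries.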

Additional observations from a re-analysis of the deposited data

How the results depend on the processing

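Of 58 gene results under 1241 alternatives, 1095 kept direction and side of the threshold, 108 fell short of it, 24 newly passed and 14 changed sign, none of these past the threshold before or after. The sign changes were TJP1 under siGlut1 on average without non-silencing high 3 (-0.0049), non-silencing control 3 (-0.0010) or siGlut1 control 1 (-0.0205) and with the length trend removed (-0.0161), against 0.0538 at most with 1 library left out; CLDN5 with non-silencing control 1 (0.0065), non-silencing control 2 (0.0690) or siGlut1 control 3 (0.0446) left out, against -0.203 at least, F11R under high glucose on average without non-silencing high 3 (0.01), siGlut1 high 2 (0.01), non-silencing control 2 (0.0327) or siGlut1 control 2 (0.0065), against -0.0646 at least, TJP1 under high glucose without both control replicates numbered 3 (-0.0049) or the length trend (-0.0213), and CLDN12 with the GC trend removed (-0.0325). Genes past the threshold for siGlut1 in control medium, 424, became 1004 with DESeq2, 70 in fits of only the groups compared, 824 with 12 columns, 247 without both control replicates numbered 3, 661 with the GC trend removed and 135 to 343 with 1 library left out; members past it, 1, became 2 with DESeq2, 0 in fits of only the groups compared and 0 to 1 with 1 library left out. For siGlut1 in high glucose, 587 became 1274, 1156, 1807, 1673 and 1049 in the same order and 6 to 1077, and the 1 member became 2 with DESeq2, only the groups compared, 12 columns or without both control replicates numbered 3, and 0 to 1 with 1 library left out. High glucose with non-silencing siRNA, 0 genes, gave 30 with DESeq2, 11 with 12 columns, 48 without both control replicates numbered 3 and 0 to 2 with 1 library left out, with members at 1 (CLDN5) without both. High glucose with siGlut1, 2 genes, gave 382 with DESeq2, 0 in the fit of only the groups compared, 37 with 12 columns, 733 without both and 0 to 17 with 1 left out, with members at 1 (CLDN5) without both. Both changes together, 1286 genes, gave 2128 with DESeq2, 743 in the fit of only the groups compared, 2014 with 12 columns, 3057 without both and 412 to 2107 with 1 left out, and the 1 member became 0, 2 and 4 with only the groups compared, 12 columns and without both, and 0 to 2 with 1 left out. The siGlut1 average, 2066 genes, gave 3180 with 12 columns and 1001 to 2497 with 1 left out (members 1 to 2), and the high-glucose average, 59, gave 504 with DESeq2, 428 with 12 columns, 2581 without both, 31 with the GC trend removed and 0 to 839 with 1 left out, with members at 2, 2 and 3 in the first 3 and 0 to 2 with 1 left out. The cause of these shifts was not tested. The replicate number as a block is an arrangement the numbers do not bear out alike in all pairs of groups. Of 6 libraries, 4 lay nearest their own number between the 2 control-medium groups, and 3 and 2 in the other pairs of groups with 3 libraries each. With that block, the counts of the 5 pairwise comparisons and both averages were 561, 597, 0, 3, 1509, 2189 and 59, and members past the threshold were unchanged in number at 1, 1, 0, 0, 1, 2 and 0. Only the groups compared cannot be fitted for the interaction or the averages, which use all 4 groups, and leaving out 1 non-silencing high library leaves 1 there, assumed to vary like the other groups. JAM2, with 24 to 72 counts, is limited by depth.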
